A study of Equus asinus with 2 samples.

Results

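INSL3 and RXFP2 are a hormone and its receptor, read here cell by cell in fetal donkey (Equus asinus) tissue. They are 2 of the 38517 features of the deposited gene table and were taken by symbol, and both had UMIs in both libraries. A UMI is a unique molecular identifier, which stands for a captured RNA molecule. The data are 2 droplet single-cell RNA libraries. The later library is labelled ovarian tissue of an 8-week fetus, and the earlier library is labelled gonad with mesonephros, the transient embryonic kidney, of a 4-week fetus. There is 1 library a stage, and neither the number of fetuses nor a genotype is labelled. Stage, dissected tissue and library therefore cannot be told apart, and no test between the stages was possible.

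INSL3 is a small peptide of the relaxin family. In mouse and human it is made chiefly by Leydig cells of the fetal testis and, after birth, also by theca cells of the ovary. RXFP2 is a receptor with a large leucine-rich outer domain that couples to Gs and raises cyclic AMP in the receiving cell. In mouse and human this pair acts on the gubernaculum, the band of mesenchyme and muscle that guides the testis towards the scrotum.

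The 8-week library kept 14590 cells and 155126426 UMIs and the 4-week library 8912 cells and 122310536 UMIs. The median was 5880 UMIs per cell at 8 weeks and 7775.5 UMIs at 4 weeks. The libraries shared 38 barcode sequences. Both libraries are labelled as germ cells, but germ-like cells made up 7.12% of the cells at 8 weeks and 5.69% at 4 weeks. The ovarian label also goes against the data. AMH, the Sertoli cell hormone that removes the Müllerian duct, reached 2938 CPM in the Sertoli-like cells of the 8-week library and 2533 CPM in those of the 4-week library. CPM counts how many of 1000000 UMIs of a group of cells belong to the gene. SRY, the Y-linked starter of testis formation, had 9.64 CPM over the whole 8-week library and 3.49 CPM over the 4-week library. FOXL2, the granulosa cell factor, had 1.55 and 1.03 CPM at 8 and 4 weeks. The later library is therefore called the 8-week library or the library labelled ovarian.

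Cells were grouped into 28 clusters without using either member, and a cluster was named "-like" from marker genes. All intervals are at 95% and cover counting error alone, not how animals differ. Levels of different genes are not compared with each other.

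INSL3 came almost wholly from the steroidogenic-like cells. These cells formed cluster 3, with 558 cells at 8 weeks and 178 at 4 weeks, and were led by STAR, CYP17A1, CITED1 and LHCGR. Of the 8 steroidogenic markers measured, 7 were at least 2-fold higher than in the remaining cells. HSD3B1 and NR5A1 were not analysed here. Cluster 3 held 92.2% of all INSL3 UMIs in 3.82% of the cells at 8 weeks, and 97.6% in 1.997% of the cells at 4 weeks. The class stood at 1953 CPM (1929 to 1977, 25837 UMIs) at 8 weeks and at 144 CPM (133 to 157, 581 UMIs) at 4 weeks, which is 13.5-fold higher at 8 weeks (12.5 to 14.7). The 2 intervals did not overlap. Among 17096 features with at least 10 UMIs in these cells, 10.5% were at least 2-fold higher at 8 weeks. Over the whole library INSL3 stood at 181 CPM (178 to 183) at 8 weeks and 4.86 CPM (4.48 to 5.27) at 4 weeks, 37.1-fold higher at 8 weeks (34.2 to 40.3). That larger ratio holds the larger share of steroidogenic-like cells at 8 weeks as well as the level within them.

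The class level moved with how the cells were chosen. A gate on the summed UMIs of STAR, CYP17A1 and CYP11A1, with no clustering, gave 844 CPM at 8 weeks and 27.5 CPM at 4 weeks, a log2 ratio of 4.94 against 3.76 for cluster 3. At 8 weeks that gate held 720 Sertoli-like cells beside 534 steroidogenic-like cells, and at 4 weeks 473 beside 175. The mean of single-cell CPM over the whole library was 89.6 for INSL3 at 8 weeks and 2.35 at 4 weeks.

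**Figure D1:**
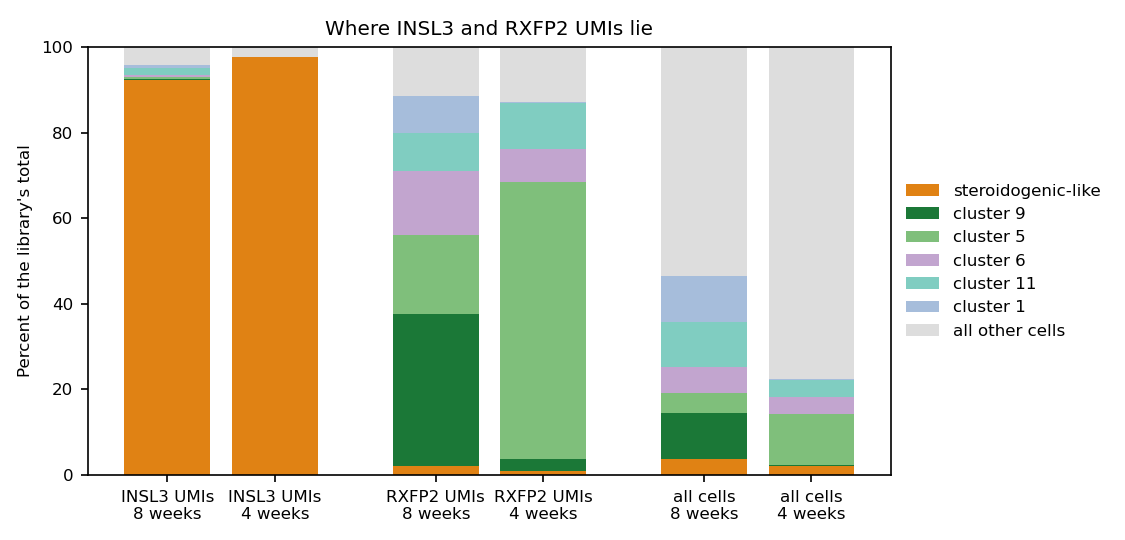
Stacked bars give the percent of each library's INSL3 UMIs, RXFP2 UMIs and cells that lie in the steroidogenic-like class and in clusters 9, 5, 6, 11 and 1, with all other cells in grey. Steroidogenic-like cells hold 92.2% of INSL3 UMIs at 8 weeks and 97.6% at 4 weeks, whereas clusters 5, 6 and 9 together hold 69.0% of RXFP2 UMIs at 8 weeks and 75.3% at 4 weeks.

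The stages also differed in how many of these cells carried INSL3. At least 1 INSL3 UMI was found in 457 of 558 steroidogenic-like cells at 8 weeks (81.9%) and in 44 of 178 at 4 weeks (24.7%). The median UMIs per cell of the class were 19088.5 at 8 weeks and 22357 at 4 weeks, so the 8-week cells were not the deeper ones. With each cell thinned to 1000 UMIs the shares were 45.2% (41.0 to 49.5) at 8 weeks and 8% (4.44 to 13.1, 14 of 175 cells) at 4 weeks. Endothelial-like cells, which should lack INSL3, gave 0.710% at 8 weeks and 0% at 4 weeks after the same thinning, which allows up to 0.203%. Unthinned, they gave 6.74% at 8 weeks, with a median of 5546 UMIs, and 0.330% at 4 weeks, with a median of 7600 UMIs.

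Expression was uneven among the senders. At 8 weeks the median steroidogenic-like cell held 9 INSL3 UMIs, the upper quartile stood at 51 UMIs and the highest cell at 680 UMIs. At 4 weeks the median and the upper quartile were 0 UMIs and the highest cell held 114 UMIs. Cells with 10 or more INSL3 UMIs numbered 270 (48.4%) at 8 weeks and 14 (7.87%) at 4 weeks. The top 56 cells of 558 held 56.8% of the INSL3 UMIs at 8 weeks, and the top 18 of 178 held 90.02% at 4 weeks. The 4-week level thus rests on few cells, and the counting interval does not cover which cells were captured.

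**Figure D2:**
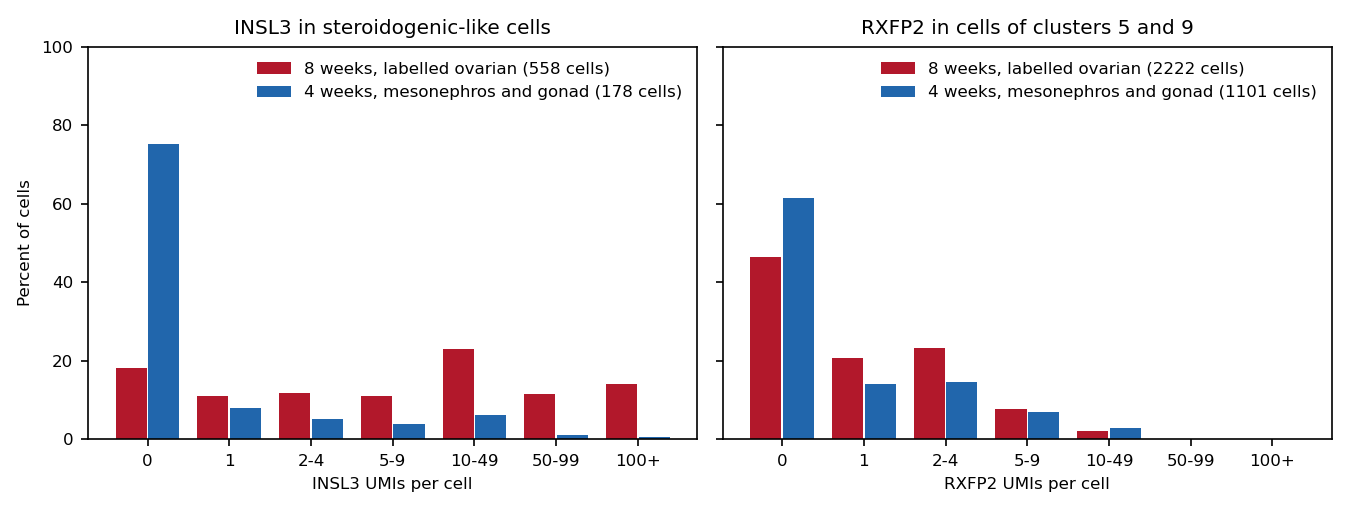
Bars give the percent of cells by number of INSL3 UMIs in steroidogenic-like cells (left) and of RXFP2 UMIs in clusters 5 and 9 (right), for 8 weeks (red) and 4 weeks (blue). For INSL3, 18.1% of the 8-week cells and 75.3% of the 4-week cells hold none, and 14.0% of the 8-week cells hold 100 or more; no cell of clusters 5 and 9 holds 50 or more RXFP2 UMIs.

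Within the 8-week senders, INSL3 went with several steroid genes. Among cells with at least 5000 UMIs, the 169 with the highest INSL3 level held 4581 CPM of INSL3 and the 169 with the lowest held 51.1 CPM, by choice. CYP17A1, the androgen-forming lyase, stood at 12102 CPM in the high cells and 5433 CPM in the low cells. STAR, which carries cholesterol into mitochondria, stood at 1274 and 534 CPM in the high and low cells, and CYP11A1, which cuts the cholesterol side chain, at 2604 and 1058 CPM. LHCGR, the luteinizing hormone receptor, stood at 529 and 260 CPM, and INHA, the inhibin alpha subunit, at 936 and 337 CPM. All 5 were higher in the high cells beyond counting error. HSD17B3, which forms testosterone, was not, with 9.75 CPM (7.19 to 12.9) in the high cells and 9.88 CPM (6.88 to 13.7) in the low cells.

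Another set of genes ran the other way in the same cells. NR0B1, a nuclear receptor that represses steroidogenic genes, stood at 61.4 CPM in the high cells and 171 CPM in the low cells. PTCH1, the hedgehog receptor and target, stood at 53.8 and 154 CPM in the high and low cells. PDGFRA, a receptor of stromal progenitors, stood at 43.7 and 132 CPM, COL1A1, fibrillar collagen, at 213 and 510 CPM, and MKI67, a mark of cycling cells, at 16.1 and 81.3 CPM. DLK1, an imprinted gene of fetal Leydig cells, was nearer to even at 3120 and 2816 CPM. The high cells were deeper, with a median of 26023 UMIs against 14854 UMIs in the low cells, and the top 6% of doublet scores included 14 high and 13 low cells. The part of depth and of stromal RNA in these differences was not tested.

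At 4 weeks the steroid enzymes were present with or without INSL3. The 14 cells with 10 or more INSL3 UMIs held 17434 CPM of CYP17A1, and the 120 cells of at least 5000 UMIs with no INSL3 UMI held 13101 CPM. STAR stood at 3134 CPM in the 14 cells and 2254 CPM in the 120 cells, and LHCGR at 560 CPM (491 to 636) and 536 CPM (509 to 564), whose intervals overlapped. DLK1 stood at 2690 and 2924 CPM. The 14 cells had a median of 30740 UMIs and the 120 cells 22357 UMIs.

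The stage ratio of INSL3 differed in direction from most of the steroid pathway. Of 16 steroidogenesis genes measured in steroidogenic-like cells, 4 were higher and 12 lower at 8 weeks, with a median log2 ratio of −0.63, against −0.01 over all features. At least 2-fold lower were 5 of the 16, against 10.2% of all features, among them STAR, SCARB1, POR and HSD3B2. STAR stood at 861 CPM at 8 weeks and 2381 CPM at 4 weeks, and SCARB1, the lipoprotein receptor that supplies cholesterol, at 264 and 679 CPM at 8 and 4 weeks. CYP17A1 stood at 8119 CPM at 8 weeks and 13616 CPM at 4 weeks. HSD17B3 was the only member at least 2-fold higher, with 9.45 CPM (125 UMIs) at 8 weeks and 4.47 CPM (18 UMIs) at 4 weeks. INSL3 therefore numbered 24.1 UMIs (23.7 to 24.4) per 100 CYP17A1 UMIs at 8 weeks and 1.06 (0.975 to 1.15) at 4 weeks.

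**Figure D3:**
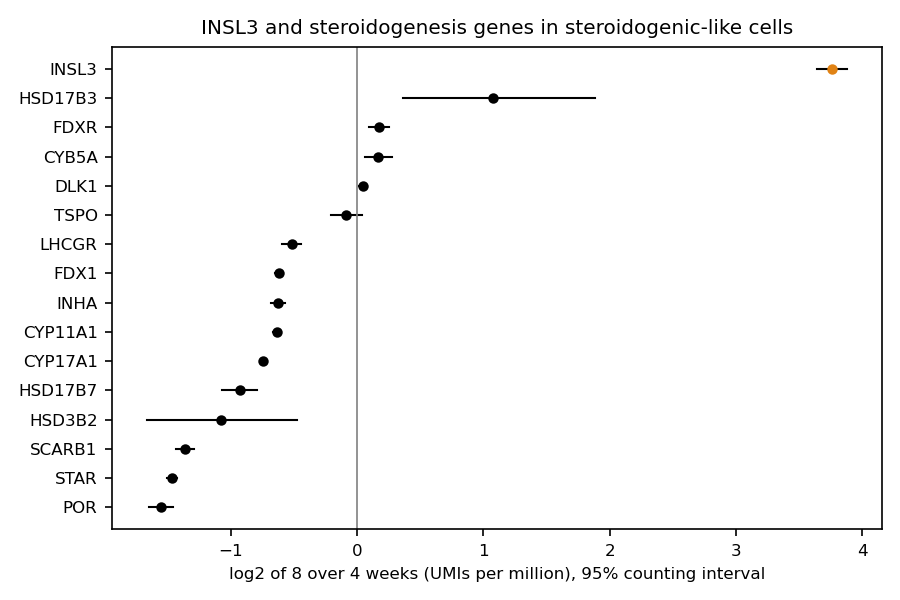
Points give the log2 ratio of 8 over 4 weeks in steroidogenic-like cells for INSL3 (orange) and 15 of the 16 steroidogenesis genes (black), with 95% counting intervals. INSL3 stands at 3.76 and STAR at −1.47, and 11 of the 15 pathway genes drawn lie below 0.

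Genes known to control INSL3 in Leydig cells of mouse or human moved 2-fold in 1 case each way. Of 19 measured, 8 were higher and 11 lower at 8 weeks, with a median log2 ratio of −0.11. NR0B1 was the only member at least 2-fold higher, with 118 CPM at 8 weeks and 19.9 CPM at 4 weeks, 5.95-fold (4.75 to 7.55). KLF6 was the only member at least 2-fold lower, with a log2 ratio of −1.05. Over all features of these cells 10.5% were at least 2-fold higher and 10.2% lower. NR4A1, an orphan receptor that drives the INSL3 promoter in rodent Leydig cells, stood at 142 CPM at 8 weeks and 129.9 CPM at 4 weeks, a ratio of 1.09 (0.993 to 1.21) whose interval includes 1. NR2F2, a nuclear receptor of Leydig progenitors, stood at 166 and 107 CPM at 8 and 4 weeks, GATA4 at 177 and 158 CPM, and LHCGR at 379.6 and 544 CPM. NR0B1 was not particular to the senders. It was among the 10 leading genes of stroma-like cluster 1 and had 7653 UMIs at 8 weeks and 2976 at 4 weeks in clusters 5 and 9. Among the 8-week senders it was higher in the cells low in INSL3, at 171 against 61.4 CPM. The part of stromal RNA in its stage ratio was not tested.

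Of 8 genes that cut and finish peptide hormones, 6 were measured in steroidogenic-like cells, with 2 higher and 4 lower at 8 weeks. Their median log2 ratio was −0.11, against −0.01 over all features. None was at least 2-fold higher, against 10.5% of all features. CPE and PCSK6 were at least 2-fold lower, 2 of the 6, against 10.2% of all features. PCSK5, a proprotein convertase, stood at 130.2 CPM at 8 weeks and 109 CPM at 4 weeks. CPE, the carboxypeptidase that trims prohormones, stood at 49.7 CPM at 8 weeks and 153 CPM at 4 weeks. The low end was PCSK6, with 7 UMIs at 8 weeks and 20 UMIs at 4 weeks.

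The other relaxin family genes had few UMIs in either library. Over the whole library RLN1 stood at 1.93 CPM at 8 weeks and 1.27 CPM at 4 weeks, and INSL6 at 1.17 and 0.474 CPM. Among the receptors, RXFP1 stood at 0.445 CPM at 8 weeks and 0.499 CPM at 4 weeks, RXFP3 at 0.767 and 0.343 CPM, and RXFP4 had 1 UMI at 8 weeks and 6 at 4 weeks. RXFP1, the relaxin receptor, had 0 UMIs in steroidogenic-like cells of both stages. RLN2 was not analysed here.

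INSL3 RNA was also found outside the sender class, mostly at 8 weeks. All other cells together held 15.3 CPM (2171 UMIs) at 8 weeks and 0.118 CPM (14 UMIs) at 4 weeks. Among the named classes at 8 weeks, macrophage-like cells held 48.5 CPM, Sertoli-like cells 18.6 CPM, cluster 6 of smooth muscle and pericyte-like cells 16.2 CPM, stroma-like cells 12.5 CPM, endothelial-like cells 10.5 CPM and germ-like cells 9.34 CPM. At 4 weeks Sertoli-like, stroma-like, macrophage-like and cluster 6 cells had 0 UMIs, which allows up to 0.16, 0.177, 3.26 and 0.918 CPM in that order. Endothelial-like cells held 0.227 CPM and germ-like cells 0.277 CPM at 4 weeks.

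Few cells made up much of this outside signal. At 8 weeks 23 cells outside the class had 10 or more INSL3 UMIs and together held 786 of the 2171 UMIs, while at 4 weeks there were 0 such cells. Their median depth was 41964 UMIs, and 11 of the 23 were among the top 6% of doublet scores. Of them 3 were macrophage-like, held 235 UMIs, and all 3 had top doublet scores. Another 9 were stroma-like and held 219 UMIs, and 0 of the 9 had such scores. The 6 Sertoli-like cells held 248 UMIs, and 4 of the 6 had such scores. Without these 3 cells the macrophage-like level was 10.5 CPM (8.11 to 13.4), whose interval overlaps that of endothelial-like cells (8.23 to 13.2). Without all 23 cells the outside level at 8 weeks was 9.83 CPM. INSL3 numbered 23.0 UMIs per 100 CYP17A1 UMIs in stroma-like cluster 1, 20.3 in cluster 11, 15.4 in germ-like cells and 13.5 in endothelial-like cells at 8 weeks, against 24.1 in the senders. In macrophage-like cells, the 3 cells above included, it was 33.3 (29.1 to 38.0). In Sertoli-like cells, which hold CYP17A1 at 788 CPM at 8 weeks, it was 2.36. Per 100 STAR UMIs INSL3 numbered 227 in the senders, 135 in endothelial-like, 178 in germ-like, 370 in Sertoli-like and 507 in macrophage-like cells. In clusters 1 and 11 that number was 243 and 215.

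Unnamed cluster 4 (154 cells at 8 weeks and 7 at 4 weeks) also carried INSL3, at 139.7 CPM (79.8 to 227, 16 UMIs) at 8 weeks, with 0 UMIs at 4 weeks. Its cells were shallow, with a median of 678.5 UMIs at 8 weeks, and 5 of the 8 steroidogenic markers measured stood at least 2-fold over other cells there.

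Genes were also ranked by how like their cluster pattern was to that of INSL3. Likeness is the Pearson correlation of log2(CPM + 10) over the 21 clusters with at least 50 cells, taken in each library and averaged over both, among 7584 genes. Among the 8 highest were LRCOL1 (0.95), STAR (0.94), TM7SF2 (0.90), LHCGR (0.89), TSGA10IP (0.87), C4A (0.87) and FDX1 (0.87). TM7SF2 is a sterol reductase of cholesterol synthesis, FDX1 passes electrons to CYP11A1 and C4A is a complement protein. Cluster 3 held the highest INSL3 level in both libraries, so the likeness may rest mostly on this cluster, and it was not recomputed without it. The part of free RNA shared by the clusters of a library was not tested. These genes did not share the stage ratio in steroidogenic-like cells: LRCOL1 stood at 113 CPM at 8 weeks and 204 CPM at 4 weeks, and TM7SF2 at 325 and 612 CPM. TSGA10IP was even, at 239 CPM at 8 weeks and 243 CPM at 4 weeks.

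RXFP2 marked other cells. Over the whole library it stood at 41.8 CPM (40.8 to 42.9, 6488 UMIs) at 8 weeks and 17.6 CPM (16.9 to 18.3, 2151 UMIs) at 4 weeks, 2.38-fold higher at 8 weeks (2.26 to 2.50). The mean of single-cell CPM was 74.9 at 8 weeks and 22.8 at 4 weeks. Clusters 5, 6 and 9 held 69.0% of the RXFP2 UMIs in 21.4% of the cells at 8 weeks and 75.3% in 16.3% of the cells at 4 weeks. In these 3 clusters together it stood at 150 CPM at 8 weeks and 107 CPM at 4 weeks, 1.40-fold higher (1.32 to 1.48). All other cells held 16.1 CPM at 8 weeks and 4.96 CPM at 4 weeks.

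The highest levels lay in stroma-like clusters 9 and 5. Cluster 9 was led by GRIK1, CSMD1, DCC, CDH13 and RSPO3, and held 1543 cells at 8 weeks but 39 at 4 weeks. RXFP2 stood there at 247 CPM (237 to 257, 2316 UMIs) at 8 weeks and 293 CPM (224 to 376, 61 UMIs) at 4 weeks, with a ratio of 0.842 (0.653 to 1.10) that includes 1. Cluster 5 was led by PENK, SNTG1, CSMD1, DCC and NCAM2, and held 679 cells at 8 weeks and 1062 at 4 weeks. Its name rests on 4 of 10 stroma markers, against 3 of 10 markers of coelomic or surface epithelium. That is the smallest lead the naming accepted. RXFP2 stood there at 137 CPM (129 to 145) at 8 weeks and 119.7 CPM (113 to 126) at 4 weeks, 1.14-fold higher (1.06 to 1.24). That order held from 2000 to 10000 UMIs per cell only. Under 2000 UMIs cluster 5 held 275 CPM at 8 weeks and 381 CPM (10 UMIs) at 4 weeks, and from 10000 UMIs on 126 and 132 CPM at 8 and 4 weeks, with overlapping intervals in both steps. Cluster 9 held 35.7% of the library's RXFP2 at 8 weeks and 2.84% at 4 weeks, and cluster 5 held 18.4% at 8 weeks and 64.8% at 4 weeks.

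The line between clusters 9 and 5 depended on the clustering. The cluster with the highest RXFP2 level held 33.7% of the 4-week RXFP2 UMIs without the top 6% of doublet scores, 43.6% with cells of at least 1000 genes, 68.7% with the library clustered alone and 71.5% at resolution 0.5. In those clusters, and at resolution 2.0, most 4-week cells came from cluster 5 and most 8-week cells from cluster 9. At 8 weeks the same share was 16.2% at resolution 2.0 and 57.8% at resolution 0.5. The 4-week level of the highest cluster was 204, 152 and 139 CPM with cells of at least 1000 genes, with the library alone and at resolution 0.5, against 293 CPM. Under these and the other 2 clusterings run, the 8-week level of the highest cluster was above its 4-week level. In the other 2, without top doublet scores and at resolution 2.0, the intervals of the stages overlapped. Those of cluster 9, at 247 and 293 CPM at 8 and 4 weeks, overlapped too. Pooled across that border, clusters 5 and 9 held RXFP2 at 194 CPM (188 to 200.5, 3507 UMIs) at 8 weeks and 123 CPM (117 to 129, 1454 UMIs) at 4 weeks. The pooled ratio was 1.58 (1.49 to 1.68), above those of cluster 9 (0.842) and cluster 5 (1.14) alone. Cluster 9 gave 1543 of the 2222 pooled cells at 8 weeks and 39 of the 1101 at 4 weeks. The part of this mix in the ratios of the pool was not tested. In the pooled cells 6.07% of 19286 features were at least 2-fold higher and 6.97% at least 2-fold lower at 8 weeks, and RXFP2 was in neither set.

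**Figure D4:**
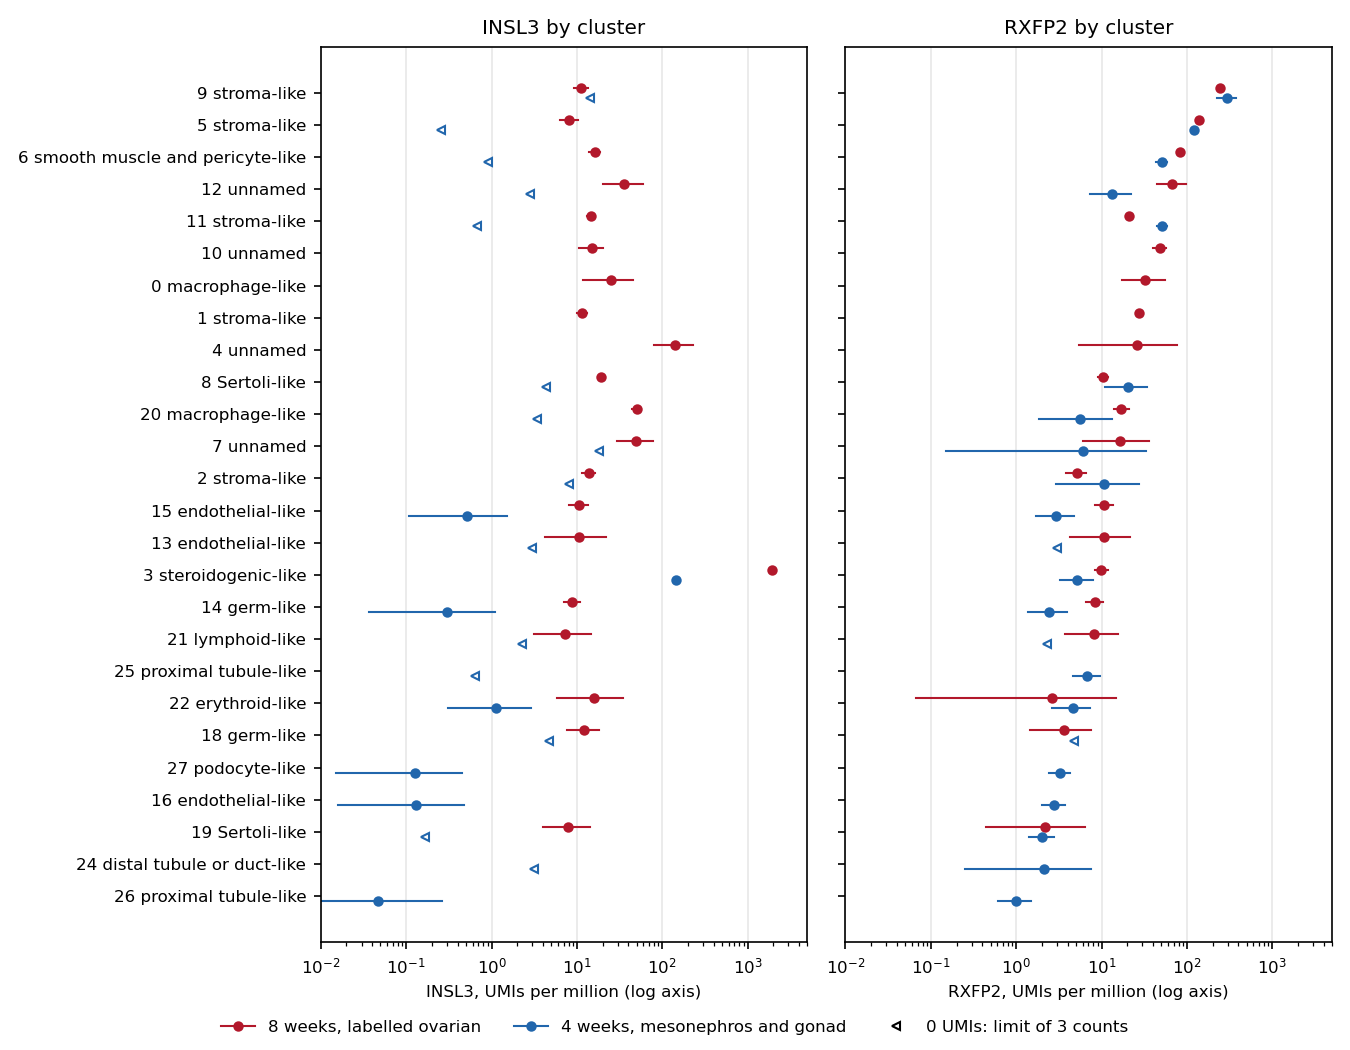
Each line is a cluster with at least 50 cells in either library, ordered by RXFP2; points give CPM on a log axis with 95% counting intervals for 8 weeks (red, upper) and 4 weeks (blue, lower), where at least 30 cells were present. INSL3 peaks in cluster 3 in both libraries, whereas RXFP2 peaks in cluster 9 (247 and 293 CPM at 8 and 4 weeks), followed by cluster 5. Cluster 6 comes next at 8 weeks, while at 4 weeks clusters 6 and 11 are level (50.5 and 50.8 CPM).

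RXFP2 level went with shallow cells. In clusters 5 and 9 together at 8 weeks it stood at 409 CPM in cells under 2000 UMIs, 371 CPM from 2000 to 5000 UMIs, 218 CPM from 5000 to 10000 UMIs and 143 CPM from 10000 UMIs on. At 4 weeks the same steps gave 328 CPM (11 UMIs), 190.1 CPM, 98.8 CPM and 134 CPM. In the deepest cells the intervals of the stages overlapped, at 136 to 149.8 CPM at 8 weeks and 125 to 143 CPM at 4 weeks, while from 2000 to 10000 UMIs those of 8 weeks lay wholly higher. The 2222 cells at 8 weeks had a median of 3352 UMIs and the 1101 cells at 4 weeks 8003 UMIs. UMIs of 90 ribosomal protein genes made up 11.01% of all UMIs in the cells under 2000 UMIs at 8 weeks and 17.9% in the deepest. In endothelial-like cells RXFP2 was also lower in deeper cells at 8 weeks, at 24.9 CPM (4 UMIs) under 2000 UMIs and 7.73 CPM in the deepest cells. At 4 weeks it was not, with 0 UMIs under 2000 UMIs and 0.698 CPM (1 UMI), 1.36 CPM (4 UMIs) and 3.08 CPM (54 UMIs) in the deeper steps. The part of depth, RNA quality and the mix of clusters 5 and 9 in the stage ratio was not tested.

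**Figure D5:**
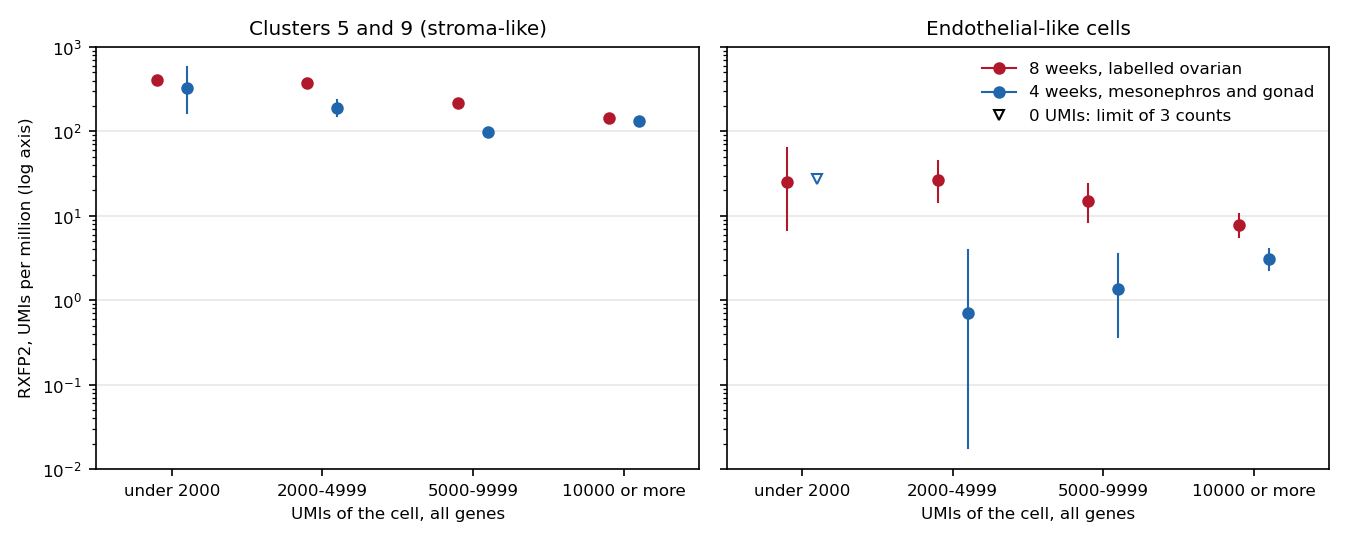
Points give RXFP2 CPM on a log axis with 95% counting intervals by the total UMIs of the cell, in clusters 5 and 9 (left) and endothelial-like cells (right), for 8 weeks (red) and 4 weeks (blue). In clusters 5 and 9 the levels are 409 CPM at 8 weeks and 328 CPM at 4 weeks in the shallowest cells, and 143 and 134 CPM in the deepest.

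Cluster 6 had the next level at 8 weeks, and at 4 weeks it was level with cluster 11 (50.8 CPM). It was named smooth muscle and pericyte-like from ACTA2, TAGLN, RGS5 and 4 other markers. RXFP2 stood there at 82.3 CPM (77.2 to 87.7, 967 UMIs) at 8 weeks and 50.5 CPM (43.1 to 58.8, 165 UMIs) at 4 weeks, 1.63-fold higher (1.38 to 1.94). The pericyte markers RGS5 or NOTCH3 had a UMI in 766 of 901 cells at 8 weeks and 222 of 353 at 4 weeks. The cells with such a UMI held 77.9 CPM of RXFP2 at 8 weeks and 45.7 CPM at 4 weeks. The cells without held 198 CPM (158 to 244, 86 UMIs) at 8 weeks and 67.4 CPM (49.9 to 89.1, 49 UMIs) at 4 weeks. They were also shallower, with a median of 1848 UMIs at 8 weeks and 4985 UMIs at 4 weeks, against 9780 and 7805.5 UMIs in the cells with one.

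Cycling stroma went the other way. Cluster 11, led by UBE2C, MKI67 and TOP2A, held RXFP2 at 20.9 CPM (19.2 to 22.7, 575 UMIs) at 8 weeks and 50.8 CPM (44.4 to 57.8, 228 UMIs) at 4 weeks, a log2 ratio of −1.28. Its cells had similar depths, with medians of 11122.5 UMIs at 8 weeks and 11170 UMIs at 4 weeks. In its cells of 10000 or more UMIs RXFP2 stood at 18.9 CPM at 8 weeks and 53.1 CPM at 4 weeks. From 5000 to 10000 UMIs it stood at 30.8 CPM (24.4 to 38.3) at 8 weeks and 39.0 CPM (26.8 to 54.7) at 4 weeks, whose intervals overlapped. Stroma-like cluster 2, led by MSC, ALKAL2 and CYTL1, held 5.10 CPM at 8 weeks and 10.8 CPM (4 UMIs) at 4 weeks, and cluster 1, led by NRG1, held 27.7 CPM at 8 weeks and 24.0 CPM (5 UMIs) at 4 weeks. As a whole, stroma-like cells held less RXFP2 at 8 weeks, 61.1 CPM (59.4 to 62.9) against 99.97 CPM (95.3 to 105) at 4 weeks. Cluster 5 gave 1062 of the 1531 cells of the class at 4 weeks and 679 of its 7070 cells at 8 weeks. Cluster 11, itself lower at 8 weeks, gave 337 cells at 4 weeks and 1526 at 8 weeks. The part of the cluster mix in this difference was not tested.

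Most other named classes held little RXFP2. Endothelial-like cells stood at 10.6 CPM (8.35 to 13.3) at 8 weeks and 2.68 CPM (2.04 to 3.46) at 4 weeks. Sertoli-like cells at 9.98 and 2.67 CPM, and germ-like cells at 7.47 and 2.22 CPM at 8 and 4 weeks, lay near that level. Macrophage-like cells held more than endothelial-like cells at 8 weeks, 18.0 CPM (14.8 to 21.7), and 5.44 CPM (5 UMIs) at 4 weeks. Unnamed cells, with medians of 1287 UMIs at 8 weeks and 1791 UMIs at 4 weeks, held 46.1 CPM at 8 weeks and 14.0 CPM at 4 weeks. Among them clusters 12 and 10 stood at 67.1 and 48.3 CPM at 8 weeks. Podocyte-like and proximal tubule-like cells, present at 4 weeks, held 3.27 and 2.04 CPM. Clusters 9, 5 and 6, singled out for their high RXFP2 level, exceeded the endothelial-like level beyond counting error in both libraries. So did clusters 11 and 1 and unnamed clusters 12 and 10, where clusters 1 and 10 had 5 and 3 UMIs at 4 weeks. After thinning, an RXFP2 UMI was found in 24.8% of cluster 9 cells at 8 weeks and 21.6% at 4 weeks, in 16.3% and 10.8% of cluster 5 cells, and in 11.3% and 5.75% of cluster 6 cells. In endothelial-like cells it was found in 1.24% at 8 weeks and 0.271% at 4 weeks.

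No cell held many RXFP2 UMIs. The highest held 32 UMIs at 8 weeks and 23 UMIs at 4 weeks, both in cluster 5, and the median cluster 5 cell held 1 UMI at 8 weeks and 0 at 4 weeks.

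PENK, a preproenkephalin gene expressed in gubernacular mesenchyme of rodents, led cluster 5 and stood there at 300.4 CPM at 8 weeks and 29.2 CPM at 4 weeks. Cluster 5 cells with a PENK UMI held RXFP2 at 135 CPM (126 to 144) at 8 weeks and 205 CPM (185 to 226) at 4 weeks, and cells without one at 144 CPM (127 to 163) and 103 CPM (96.6 to 109) at 8 and 4 weeks. The RXFP2 level thus did not differ beyond counting error between cells with and without PENK at 8 weeks, and was higher in those with PENK at 4 weeks. The cells with PENK were deeper, with medians of 11218 UMIs at 8 weeks and 15869.5 UMIs at 4 weeks, against 2447 and 7900 UMIs in those without. After thinning, an RXFP2 UMI was found in 13.6% (10.2 to 17.7) of cells with PENK and 19.9% (15.2 to 25.3) without at 8 weeks, and in 18.8% (11.2 to 28.8) with and 10.1% (8.26 to 12.1) without at 4 weeks. In cluster 9 PENK stood at 19.0 CPM at 8 weeks and had 1 UMI at 4 weeks.

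By the same measure, the genes most like RXFP2 over the clusters were SNTG1 (0.91), TNC (0.90), DCC (0.88), UNC5D (0.86), HTR2C (0.86), SMOC2 (0.86), HAND2 (0.85) and PCDH15 (0.85). TNC is the matrix protein tenascin C, SMOC2 a matrix-associated calcium-binding protein, DCC and UNC5D are netrin receptors, HTR2C is a serotonin receptor, HAND2 a mesenchymal transcription factor and PCDH15 a protocadherin. In clusters 5 and 9 together TNC stood at 76.3 CPM at 8 weeks and 44.8 CPM at 4 weeks, and SMOC2 at 158 and 82.9 CPM. SNTG1 stood at 216 CPM at 8 weeks and 396 CPM at 4 weeks, HAND2 at 43.5 and 81.3 CPM, and DCC at 195 and 213 CPM.

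Receptor signalling genes were present in the receiving cells at both stages. Of 26 genes of the Gs and cyclic AMP pathway measured in clusters 5 and 9, 10 were higher and 16 lower at 8 weeks, with 2 at least 2-fold higher, none at least 2-fold lower and a median log2 ratio of −0.07, against 0.00 over all features. GNAS, the Gs alpha subunit, stood at 1255 CPM at 8 weeks and 1321 CPM at 4 weeks. ADCY8, an adenylyl cyclase, stood at 151 and 164 CPM at 8 and 4 weeks, where endothelial-like cells held 12.2 and 6.58 CPM. PDE4D, which breaks down cyclic AMP, stood at 139 CPM at 8 weeks and 211 CPM at 4 weeks, and CREM, a cyclic AMP-responsive factor, at 264 and 243 CPM. The members at least 2-fold higher in the pool were ADCY7 and PDE4C, against 6.07% of all features higher and 6.97% lower. In cluster 5 alone the log2 ratios were 0.05 for GNAS, −0.96 for ADCY8, −0.68 for PDE4D and 0.72 for CREM. In the pool they were −0.07, −0.12, −0.60 and 0.12 in that order. Of the list, 12 of 25 measured were higher in cluster 5 alone and 7 of 26 in cluster 9 alone. The part of the cluster mix in the pooled values was not tested.

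Genes tied to the gubernaculum in mouse or human were partly present. The list of 30 symbols includes LGR8, an older symbol of RXFP2 itself, and 29 of the 30 were found among the features. Of these, 24 had at least 10 UMIs in clusters 5 and 9. Of the 24, 15 were higher and 9 lower at 8 weeks, with a median log2 ratio of 0.25, against 0.00 over all features. In cluster 5 alone 13 of 24 were higher and 11 lower, with a median of 0.18 against −0.07. In cluster 9 alone 7 of 19 were higher and 12 lower, with a median of −0.22 against −0.14. The part of the cluster mix in the pooled values was not tested. In the pooled cells PENK, HOXD10, MEOX2 and MSX1 were at least 2-fold higher. HOXA11 was lower there, with 0 UMIs at 8 weeks and 10 at 4 weeks. These are 4 and 1 of 24 members, against 6.07% higher and 6.97% lower over all features. HOXD10, a posterior patterning gene, stood at 17.4 CPM at 8 weeks and 4.14 CPM at 4 weeks, and MSX1 had 43 UMIs at 8 weeks and 2 at 4 weeks. WNT5A, a ligand needed for gubernacular growth in mouse, stood at 139 CPM at 8 weeks and 96.7 CPM at 4 weeks. TCF21, a mesenchymal factor, stood at 120.4 CPM at 8 weeks and 68.9 CPM at 4 weeks. ESR1, the estrogen receptor through which estrogens lower INSL3 in mouse, stood at 12.1 and 10.04 CPM at 8 and 4 weeks, a ratio of 1.21 (0.960 to 1.52) that includes 1.

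In cluster 6 the same list leaned lower at 8 weeks. Of 23 members measured, 7 were higher and 16 lower, with a median log2 ratio of −0.37 against −0.04 over all features. At least 2-fold higher was 1 member, against 8.23% of 17078 features, and 5 were at least 2-fold lower, against 10.1%. ACTG2, enteric smooth muscle actin, stood at 104 CPM at 8 weeks and 22.0 CPM at 4 weeks. HOXA10, whose loss leaves mouse testes undescended, stood at 1.28 CPM at 8 weeks and 19.6 CPM at 4 weeks.

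Cells with UMIs of both members were few and numbered 329 of 14590 (2.25%) at 8 weeks and 4 of 8912 (0.0449%) at 4 weeks. Among steroidogenic-like cells they numbered 55 of 558 at 8 weeks and 3 of 178 at 4 weeks. RXFP2 in this class stood at 9.90 CPM (8.28 to 11.7) at 8 weeks, overlapping the endothelial-like interval, and at 5.22 CPM (3.23 to 7.98) at 4 weeks, overlapping that interval too. The 505 cells of the class without top doublet scores at 8 weeks held 60 of its 131 RXFP2 UMIs. RXFP2 stood at 5.35 CPM (4.08 to 6.89) in those cells. In clusters 5 and 9 together INSL3 stood at 9.79 CPM at 8 weeks, near the endothelial-like level of 10.5 CPM, and at 0 UMIs at 4 weeks, which allows up to 0.253 CPM. With stricter limits, of 10 INSL3 UMIs and 2 RXFP2 UMIs, 26 cells remained at 8 weeks, 22 of them steroidogenic-like, and 0 at 4 weeks.

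The neighbouring genes did not share the members' patterns. In the RefSeq gene table of the donkey, B3GNT3 and JAK3 flank INSL3 and FRY follows RXFP2, and no gene overlaps either member. JAK3, a kinase of lymphocyte cytokine receptors, stood at 4.31 CPM at 8 weeks and 3.73 CPM at 4 weeks in steroidogenic-like cells, and B3GNT3 had 0 UMIs at 8 weeks and 1 at 4 weeks there. FRY stood highest of the receiving clusters in cluster 6, at 376 CPM at 8 weeks and 297 CPM at 4 weeks, and at 60.7 and 79.9 CPM in clusters 5 and 9.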

How the data were processed

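The deposited matrices hold UMI counts, whole numbers for each gene in each barcode with no normalization. The authors ran Cell Ranger, whose version is 7.1.0 per the file headers, while the submitters' processing notes give 2.1.1. A DNBelab C series kit is named in the labels, although the barcodes look like those of Cell Ranger. Which genome build, annotation, strand setting and intron setting were used is not given in the sources used here, so no coordinates are printed. Locus identifiers stood for 21981 features, and 768 of them got a symbol from the RefSeq gene table of the donkey.

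Cells needed 200 genes, which took out 3 barcodes at 8 weeks and 26 at 4 weeks. Both libraries were clustered jointly with scanpy 1.11.5 in Python 3.11.15, with no batch integration. It used 2000 variable genes (haemoglobin genes, INSL3 and RXFP2 left out), 30 principal components, 20 neighbours and Leiden resolution 1.0 with seed 1. A marker counted for a cluster when 2-fold higher there than in the remaining cells after adding 10 CPM. To be named, a cluster needed 3 such markers, 33.3% of the list and a lead of 10 points over the next class. A cluster stayed unnamed when its 10 leading genes pointed to another class, or when its UMIs were very low and none of those genes was a marker. Doublets stayed in. Scores from 2 simulated doublets per cell served to remove the top 6% as an alternative.

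Levels are summed UMIs as CPM with exact Poisson intervals. Stage ratios have exact conditional binomial intervals, and shares have Clopper-Pearson intervals, all at 95% and for counting error only. For 0 UMIs the limit is that of 3 counts. Thinning took 1000 UMIs from each cell without replacement and left out shallower cells. List ratios used genes with at least 10 UMIs and 0.5 UMI added to each sum. For the split by INSL3, cells of at least 5000 UMIs were ranked by INSL3 CPM. The ratio code was tested on simulated data. With 1 library a stage, no p-value is given and cells were not used as replicates.

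Genes were named by rule: both members, the 8 genes most like each, members of 6 lists and genome neighbours. PTCH1, COL1A1, MKI67, PDGFRA, CITED1 and the testis and ovary genes fall outside it. Some genes that the rule names are not reported here. The members, markers and lists were chosen with earlier results of these data known. The limits on which clusters are compared in the closing section, the depth steps, the split of clusters 5 and 6 by PENK, RGS5 and NOTCH3, and the pooling of clusters 5 and 9 were chosen after the values were seen.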

Additional observations from a re-analysis of the deposited data

Results flagged for a closer look

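RXFP2 moved in different directions between the stages in different clusters. The log2 ratio of 8 over 4 weeks was −1.28 in cycling stroma-like cluster 11, while it was 0.19 in stroma-like cluster 5 and 0.71 in smooth muscle and pericyte-like cluster 6. In cluster 5 cells of 10000 or more UMIs RXFP2 stood at 126 CPM at 8 weeks and 132 CPM at 4 weeks, with overlapping intervals. In unnamed cluster 12, whose cells had medians of 710 UMIs at 8 weeks and 1681 UMIs at 4 weeks, it was 2.34. In macrophage-like cluster 20 it was 1.59, from 98 UMIs at 8 weeks and 5 UMIs at 4 weeks. Each of these 5 counting intervals excluded a log2 ratio of 0. The differences between the clusters were not tested, since each stage is 1 library. In endothelial-like cells, which should lack RXFP2, the log2 ratio was 1.99. Only clusters with at least 50 cells in each library, and with a level above the upper limit of endothelial-like cells at both stages, were compared in this way. Unnamed cluster 7 also met these limits, with a log2 ratio of 1.47 from 6 UMIs at 8 weeks and 1 UMI at 4 weeks, and its interval included 0.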

How the results depend on the processing

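Of 91 values recomputed under other settings, 44 lay within the counting interval of the main value and 47 lay outside it. The counting error of the recomputed value was left out of this count, so some of the 47 have intervals that overlap the main one. RXFP2 over the 8-week library is such a case, at 39.7 to 41.7 CPM with at least 1000 genes against 40.8 to 42.9 CPM. The INSL3 log2 ratio in steroidogenic-like cells was above 0 under all 9 alternatives run. No paired analysis was possible because each stage is 1 library, and leaving out a library leaves no comparison. The cause of each movement was not tested.

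For INSL3 over the whole library, removal of the top 6% of doublet scores gave 190.4 CPM at 8 weeks and 5.38 CPM at 4 weeks, and the mean of single-cell CPM gave 89.6 and 2.35 CPM. For RXFP2 it gave 74.9 and 22.8 CPM, and cells of at least 1000 genes gave 40.7 CPM at 8 weeks. In steroidogenic-like cells INSL3 at 8 weeks was 2062 CPM without top doublet scores (2119 CPM with clusters kept, an alternative added after seeing the data), 1889.9 at resolution 2.0, 1872 with the library alone, 1875 as a mean over cells and 844 in the marker gate. At 4 weeks it was 181, 178, 114 and 27.5 CPM without top doublet scores, with clusters kept, as a mean over cells and in the gate. The log2 ratio was 3.51, 3.57, 4.03 and 4.94 under these 4 settings, against 3.76.

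The share of INSL3 UMIs in the class at 8 weeks was 92.7% with at least 1000 genes, 94.0% without top doublet scores, 94.2% with clusters kept, 91.2% with the library alone and 95.6% in the gate. The thinned share of cells with INSL3 was 18.6% at 8 weeks and 0.951% at 4 weeks in the gate, 57.6% at 8 weeks at 2000 UMIs, and 81.9% and 24.7% without thinning.

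In the cluster with the highest RXFP2 level the order of the stages was not settled. It stood at 247 CPM (237 to 257) at 8 weeks and 293 CPM (224 to 376) at 4 weeks, with overlapping intervals. It was higher at 8 weeks under all 5 alternative clusterings run, with overlapping intervals at resolution 2.0 and without top doublet scores. In all 5, most of its 8-week cells came from cluster 9 and most of its 4-week cells from cluster 5. With each library alone, a separate cluster was taken at each stage. The part of this mix in the order of the stages was not tested. With at least 1000 genes the highest cluster stood at 232 CPM at 8 weeks and 204 CPM at 4 weeks, with 27.6% and 43.6% of the UMIs. At resolution 0.5 it stood at 184 and 139 CPM, with 57.8% and 71.5%. At resolution 2.0 it stood at 282 and 209 CPM, with 16.2% at 8 weeks. Without top doublet scores it held 42.7% and 33.7%. With each library alone it held 32.3% at 8 weeks and 68.7% at 4 weeks, at 249 CPM at 8 weeks and 152 CPM at 4 weeks. Without top doublet scores its level was 248 CPM at 8 weeks and 237 CPM at 4 weeks. The 4-week level of cluster 9 rests on 61 UMIs in 39 cells. With the main clusters kept and top doublet scores removed, cluster 9 stood at 261 CPM at 8 weeks and 293 CPM at 4 weeks. That ratio was 0.889 (0.689 to 1.17), which includes 1.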
